A study of Rattus norvegicus with 6 samples.

Results

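Mitochondrial ATP synthase is the rotary enzyme of the inner membrane that makes ATP from ADP and phosphate. Its subunit genes were examined in the substantia nigra pars compacta of rats given rotenone or its solvent. The list held 10 nuclear genes, and a probe belonged to one of them if its RefSeq accession, without version, was a transcript of that gene. Of the 10 genes, 8 were found, with 1 probe each, on an array of 33849 probes. A gene symbol was found for 4675 of these probes. Atp5f1b (Atp5b), of the catalytic beta subunit, and Atp5mc3 (Atp5g3), a further gene of subunit c, had no probe under this rule and were not analysed here. The rule itself uses names and no measured value.

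Tissue came from adult male Sprague Dawley rats, 5 months old. In the rotenone group (rats 9, 13 and 16), osmotic pumps under the skin delivered rotenone at 0.5 mg/kg per day for 28 days. Rotenone, a plant-derived pesticide, blocks respiratory complex I. In the solvent group (rats 1, 7 and 11), the same pumps delivered the vehicle alone, dimethylsulfoxide with polyethylene glycol and the surfactant Pluronic F-127, which the rotenone rats received too. All rats had ketamine and xylazine anaesthesia for the implantation. The region was cut out by laser capture, the RNA of each rat was amplified, and each rat gave 1 one-colour array, so that n is 3 rats a group. Values are log2 intensities after background correction and quantile normalization, and a difference is rotenone minus solvent. In tissue RNA, fewer cells of a type and less RNA per cell cannot be told apart.

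ATP synthase has a catalytic head and central stalk, called F1, on the matrix side and a proton channel, called Fo, in the membrane. Protons that the respiratory chain has pumped out return through the ring of c subunits and turn it. The central stalk, made of the gamma, delta and epsilon subunits, carries this rotation into the alpha and beta subunits of the head, and the peripheral stalk holds the head still. Neurons of the pars compacta fire steadily and depend on this supply of ATP. Complex I, which rotenone blocks, is one of the pumps that build the proton gradient.

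No subunit gene of the 8 was called, and in each of them rotenone and solvent rats overlapped. Of the 8, 5 differed by no more than 0.10 in either direction: Atp5f1a, Atp5f1c, Atp5f1e, Atp5pd and Atp5pf. The other three, Atp5f1d, Atp5mc1 and Atp5mc2, had means that were lower with rotenone by -0.84, -0.41 and -0.45, and in each of them rotenone rat 16 was the lowest of the 6 rats. Without that rat the differences were -0.25, -0.19 and -0.13. By limma's moderated test, two-sided with Benjamini-Hochberg adjustment over 16708 probes, 0 of 8 members were called, against 0% of all probes tested, and no adjusted value was smaller than 0.895. Without adjustment, 0 of 8 members had a p below 0.05, against 4.94% of all probes. With 3 rats against 3, an exact two-sided permutation test cannot go below 0.1. In a simulation on the same 16708 probes, this test recovered 33% of 100 changes of 2-fold and 77% of 100 changes of 4-fold. Its noise was drawn independently for each probe and array, with no outlying array. The shares hold for that setting and do not give the power in these data.

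The array of rotenone rat 16 stood apart from the others, so values are given with and without it. Across all probes it correlated with the others at 0.953 on average, and the other arrays did so at 0.968 to 0.972. Of its probes 44.2% were above background, against 48.6% to 51.5% elsewhere. Synthetic mRNAs had been added to every tube before amplification, and the arrays carried 240 positive control spots for 6 control mRNAs. The median scaled intensity of these spots was 73.3, 86.8 and 18.4 in rotenone rats 9, 13 and 16, and 53.3, 128 and 85.3 in solvent rats 1, 7 and 11. Each of the 6 control mRNAs was lowest in rotenone rat 16, next lowest in solvent rat 1 and highest in solvent rat 7. The file of solvent rat 7 also had another header date than the other files. Markers of dopamine neurons were uneven in level. Th, a bright one, lay between 12.56 and 13.09 in rotenone rats and between 12.48 and 12.88 in solvent rats. Slc6a3 lay between 12.45 and 12.57 in rotenone rats and between 12.60 and 12.82 in solvent rats. Pitx3 and Foxa2 were dim, above background on 3 and 4 of 6 arrays. Of 11 measured markers, 7 were lower in mean with rotenone, against 48.3% of all probes tested, and 4 higher. Their differences ran from -0.79 (Nr4a2) to 0.23 (Drd2). Sncg and Slc18a2 differed by -0.67 and -0.54.

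**Figure D1:**
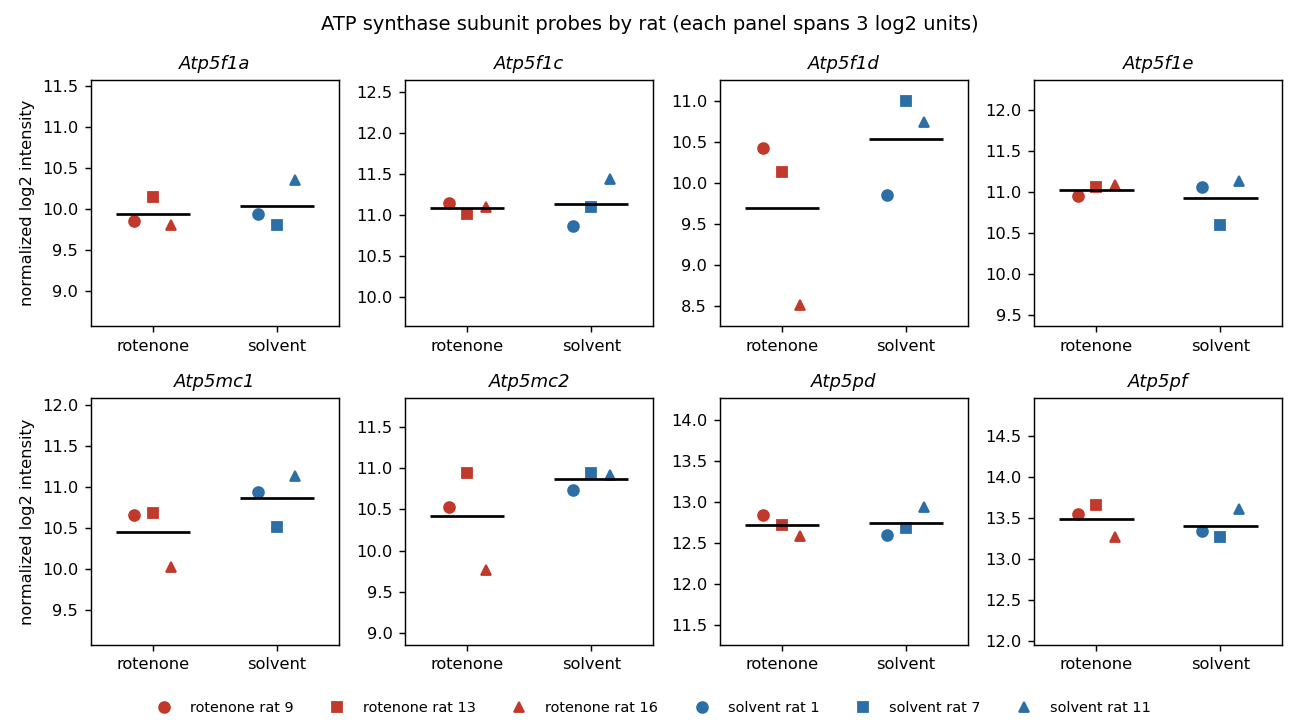
Normalized log2 intensity (vertical axes, each spanning 3 log2 units) of the 8 ATP synthase subunit probes by group, with 1 point a rat and a bar at the group mean (n = 3). Rotenone rat 16, the red triangle, is well below the other rats in Atp5f1d, Atp5mc1 and Atp5mc2 and lies among them in Atp5f1c and Atp5f1e.

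Among the F1 subunits, Atp5f1a (Atp5a1, probe GE19582) encodes alpha, which forms the head together with beta. It had log2 intensities of 9.86, 10.15 and 9.80 in rotenone rats 9, 13 and 16, against 9.94, 9.80 and 10.35 in solvent rats 1, 7 and 11. The groups overlapped almost fully, and rotenone rat 16 and solvent rat 7 had nearly the same value. The means were 9.93 ± 0.19 with rotenone and 10.03 ± 0.29 with solvent (SD, n = 3 each), a difference of -0.10 with a 95% interval from -0.53 to 0.33.

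Atp5f1c (Atp5c1, probe GE19627) encodes gamma, the shaft of the central stalk. It lay at 11.14, 11.01 and 11.10 in rotenone rats 9, 13 and 16, against 10.86, 11.09 and 11.43 in solvent rats 1, 7 and 11. The rotenone values lay inside the range of the solvent values, and rat 16 was in the middle. Rotenone minus solvent was -0.04 for Atp5f1c (95% interval -0.45 to 0.37).

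Atp5f1d (Atp5d, probe GE20832) encodes delta, which joins the central stalk to the ring of c subunits. It lay at 10.43, 10.13 and 8.52 in rotenone rats 9, 13 and 16, against 9.85, 11 and 10.75 in solvent rats 1, 7 and 11. Rotenone rat 16 was lowest by 1.34 log2 units, and the next lowest was a solvent rat, number 1. Before any normalization the background-subtracted intensity was 1271, 1037 and 261 in these rotenone rats, against 935, 2116 and 1635 in the solvent rats, so the low value of rat 16 was already in the scanner file. The means were 9.69 ± 1.03 with rotenone and 10.53 ± 0.60 with solvent (SD, n = 3 each). The difference of -0.84 ± 0.46 (SE) had a 95% interval from -1.86 to 0.18 and, in limma, an unadjusted p of 0.0957 and an adjusted p of 0.895. It was -0.25 without rotenone rat 16, with an interval from -0.96 to 0.46. The difference was -1.21 without rotenone rat 9 and -0.61 without solvent rat 7. No other member varied as much among rats of 1 group, in either group.

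Atp5f1e (Atp5e, probe GE1202898) encodes epsilon, the smallest subunit of the central stalk. It had 10.95, 11.06 and 11.09 in rotenone rats 9, 13 and 16, against 11.06, 10.60 and 11.14 in solvent rats 1, 7 and 11. Here rat 16 was the highest of the rotenone rats and solvent rat 7 the lowest of all. Rotenone minus solvent was 0.10 for Atp5f1e (95% interval -0.31 to 0.51).

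The c ring of Fo is built from a protein that several nuclear genes encode, with different import sequences and the same mature protein. Both genes of this kind that had a probe were lower in mean with rotenone. Atp5mc1 (Atp5g1, probe GE20490) lay at 10.66, 10.69 and 10.03 in rotenone rats 9, 13 and 16, against 10.94, 10.52 and 11.14 in solvent rats 1, 7 and 11. Solvent rat 7 lay below rotenone rats 9 and 13, so the groups overlapped even apart from rat 16. The means were 10.46 ± 0.37 with rotenone and 10.87 ± 0.32 with solvent (SD, n = 3 each), and the difference was -0.41 ± 0.23 (SE), with a 95% interval from -0.92 to 0.11.

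Atp5mc2 (Atp5g2, probe GE19464) lay at 10.53, 10.95 and 9.76 in rotenone rats 9, 13 and 16, against 10.74, 10.95 and 10.92 in solvent rats 1, 7 and 11. Rotenone rat 13 equalled the highest solvent rat to 2 decimals, rotenone rat 9 was under the lowest, and rat 16 was lowest by 0.77. The solvent rats were close together (10.87 ± 0.11) and the rotenone rats were not (10.42 ± 0.60; SD, n = 3 each). The difference of -0.45 had a 95% interval from -1.05 to 0.14. In limma, Atp5mc1 had an unadjusted p of 0.109 and Atp5mc2 one of 0.120, both adjusted to 0.895. Without rotenone rat 16 their differences were -0.19 (interval -0.65 to 0.28) and -0.13 (interval -0.54 to 0.29). The difference of Atp5mc2 was -0.73 without rotenone rat 13, and that of Atp5mc1 was -0.27 without solvent rat 11.

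The peripheral stalk was represented by Atp5pd and Atp5pf. Atp5pd (Atp5h, probe GE21559), of subunit d, lay at 12.84, 12.72 and 12.58 in rotenone rats 9, 13 and 16, against 12.60, 12.68 and 12.94 in solvent rats 1, 7 and 11. All 6 rats lay within a narrow band, and they differed by -0.03 in mean (95% interval -0.41 to 0.35). Atp5pf (Atp5j, probe GE1230313), of coupling factor 6, lay at 13.54, 13.65 and 13.26 in rotenone rats 9, 13 and 16, against 13.34, 13.26 and 13.60 in solvent rats 1, 7 and 11. Rotenone rat 16 and solvent rat 7 had equal values, and the means differed by 0.08 (95% interval -0.31 to 0.48). Before normalization the background-subtracted intensity of Atp5pf was 11094, 11676 and 11271 in these rotenone rats, against 10168, 10131 and 12308 in the solvent rats. Rat 16 was not the lowest there. Over 6 rats the intervals of both stalk genes leave out a fall or a rise of 0.5 log2 units. The background offset compresses this scale. Without rotenone rat 16 the difference of Atp5pd was 0.03 (interval -0.36 to 0.42) and that of Atp5pf 0.21 (interval -0.19 to 0.61). The latter interval includes a rise of 0.5. With scaled intensities, Atp5pd and Atp5pf differed by 0.14 and 0.30.

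**Figure D2:**
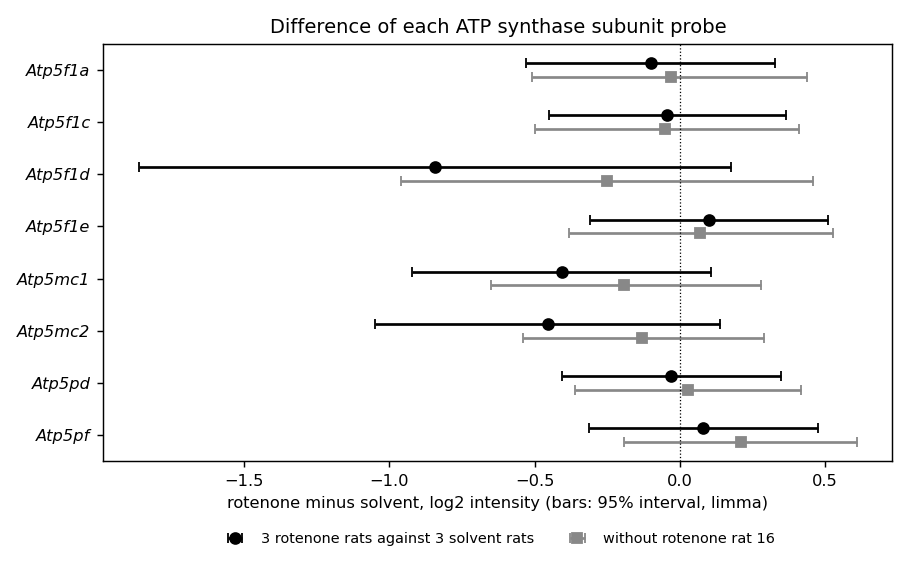
Rotenone minus solvent (horizontal axis, log2 intensity) for each subunit probe, as the fitted difference with its 95% interval from limma, over 6 rats (black circles) and without rotenone rat 16 (grey squares). Every interval includes 0, and Atp5f1d moves from -0.84 to -0.25 when rat 16 is left out.

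As a group, 6 of the 8 members had a lower mean with rotenone and 2 a higher one, against 48.3% of all probes tested with a lower mean. Of the 6, Atp5f1a, Atp5f1c and Atp5pd differed by only -0.10, -0.04 and -0.03. The count was 3 of 8 without solvent rat 11 and 7 of 8 without solvent rat 7. The median difference was -0.07, against 0.01 for all probes. For 3 of 8 members the difference was below -0.4, a bound chosen after the values were seen, against 5.82% of all probes. In 0 of 8 members did the groups not overlap, against 9.97% of all probes (4.89% lower and 5.08% higher with rotenone). Rotenone rat 16 alone was the lowest of 6 in 5 of 8 members, against 26.1% of all probes, and in Atp5f1a and Atp5pd it was so by 0.02 or less. The median deviation of the members from the solvent mean was -0.04, 0.03 and -0.20 in rotenone rats 9, 13 and 16, and -0.11, -0.10 and 0.21 in solvent rats 1, 7 and 11. The solvent mean holds the solvent rats themselves, so their own deviations are drawn towards 0. Without rotenone rat 16, 5 of 8 members were lower, against 49.6% of all probes, and the median was -0.04. The adjusted p of each member in limma was then 1.00, at which 0% of all probes were called.

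All 8 probes were bright and above background on 6 of 6 arrays. The scanner marked most of their spots as irregular, against 29.4% to 36.3% of all probes per array. Atp5f1a, Atp5f1c, Atp5f1d, Atp5f1e and Atp5mc2 had this mark on 6 of 6 arrays, and Atp5mc1 on all but that of solvent rat 7. On each array they ranked high among the probes tested: Atp5pf was at or above 99.9% of them in every rat and Atp5pd at or above 99.7%. Atp5f1d was at or above 96.1%, 94.8% and 79.7% of probes in rotenone rats 9, 13 and 16, against 93.2%, 97.9% and 97.3% in solvent rats 1, 7 and 11. This is the widest span of ranks among the members. For Atp5mc2 the ranks were 96.5%, 97.8% and 92.6% in the rotenone rats, against 97.2%, 97.8% and 97.7% in the solvent rats. Ranks describe each probe on its own, since different probes differ in how strongly they bind.

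The same pattern of rats was seen in some of the other subunits. Of the list of 11 further subunit genes, with the inhibitor, 3 had a named probe: Atp5po, Atp5pb and Atp5me. Of these, 2 were lower in mean with rotenone, 1 was higher, 0 were called, and the median was -0.29, or 0.01 without rotenone rat 16. Atp5po (Atp5o), of the subunit that joins the peripheral stalk to the top of the head, had 11.10, 11.02 and 9.52 in rotenone rats 9, 13 and 16, against 10.68, 11.39 and 11.34 in solvent rats 1, 7 and 11. Its difference was -0.59 ± 0.38 (SE), with an unadjusted p of 0.155 and an adjusted p of 0.895 in limma, and -0.07 without rat 16. Atp5pb (Atp5f1), of subunit b, the long arm of that stalk, had 7.87, 7.78 and 6.44 in the rotenone rats, against 6.93, 8.20 and 7.84 in the solvent rats. Its difference was -0.29, and 0.17 without rat 16. Atp5me (Atp5i), of the small membrane subunit e, differed by 0.07 and had 10.45 in both rotenone rat 16 and solvent rat 1. Rotenone rat 16 was the lowest rat in Atp5f1d, Atp5mc1, Atp5mc2, Atp5po and Atp5pb and not in Atp5f1c, Atp5f1e and Atp5me.

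**Figure D3:**
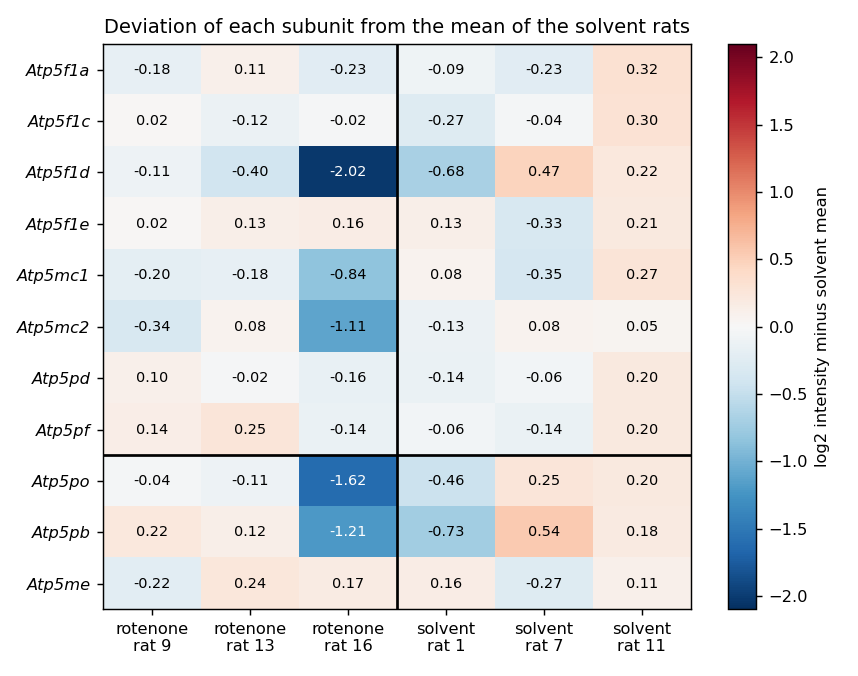
Log2 intensity minus the mean of the 3 solvent rats (colour and printed value) for the 8 members and, under the line, 3 further subunits, by rat. Rotenone rat 16 holds the lowest values, at -2.02 for Atp5f1d and -1.62 for Atp5po, and solvent rat 1 is also below 0 in Atp5f1d, Atp5po and Atp5pb.

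The level of Atp5f1d varied with the positive control spots. In Atp5f1d, as in the controls, rotenone rat 16 was lowest, solvent rat 1 second lowest and solvent rat 7 highest. This order was seen in 1 of 8 members and in 2.63% of all probes tested. Across the 6 arrays, which include both groups, Pearson's r between Atp5f1d and the log2 median of the controls was 0.97 and Spearman's rho was 0.829. Exact permutation tests, two-sided, gave p = 0.00556 for r and 0.0583 for rho. Adjusted over the 8 members these were 0.0444 and 0.233. Without rotenone rat 16 and solvent rat 7, the arrays farthest from the median of the controls, r was 0.698 over 4 arrays. For Atp5mc2, r was 0.935 and rho 0.886, with exact permutation p values of 0.0292 and 0.0333 (adjusted 0.117 and 0.233), and r was 0.476 over those 4 arrays. The other members had r from -0.528 (Atp5f1e) to 0.614 (Atp5mc1), with adjusted exact permutation p values from 0.467 to 0.682. An r above 0.8 was found in 2 of 8 members and in 9.41% of all probes. Outside the members, r was 0.979 for Atp5po, 0.946 for Atp5pb and -0.479 for Atp5me. It was 0.918 for Slc25a3, the phosphate carrier that supplies the enzyme, which had 8.46, 8.49 and 7.16 in rotenone rats 9, 13 and 16, against 7.51, 9.35 and 8.61 in solvent rats 1, 7 and 11. For Atp5pf, r was 0.41 over 6 arrays and 0.992 over the same 4 arrays, so leaving out rotenone rat 16 and solvent rat 7 made its r higher and that of Atp5f1d and Atp5mc2 lower. Over those 4 arrays r was 0.707 for Atp5pd, 0.675 for Atp5f1c, 0.64 for Atp5f1a, 0.228 for Atp5f1e and -0.0842 for Atp5mc1. The relation was looked for after the values were seen, and the part of the control signal in the differences was not tested.

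**Figure D4:**
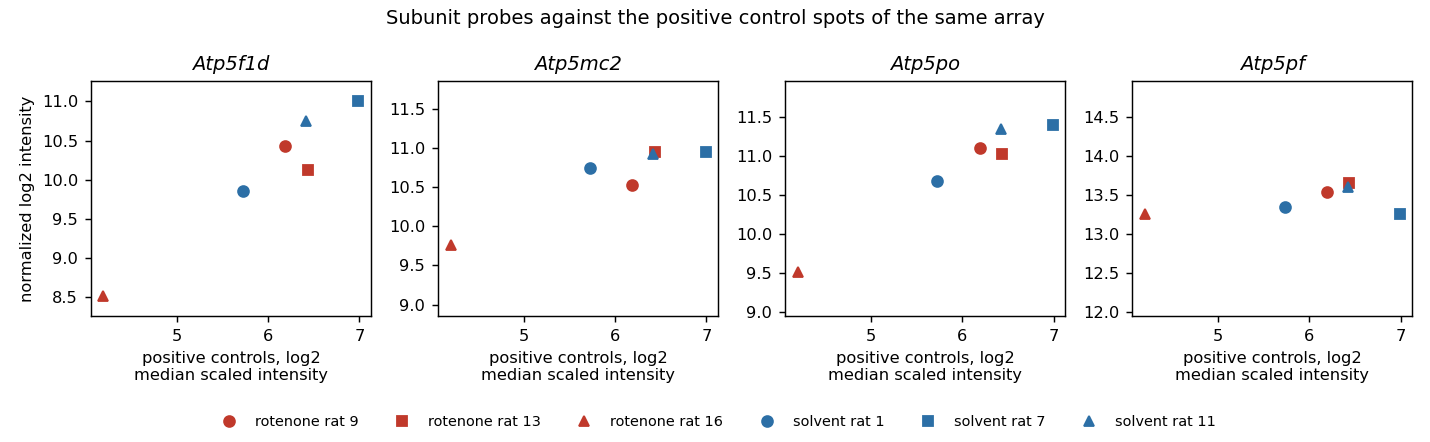
Normalized log2 intensity of 4 subunit probes (vertical axes, each spanning 3 log2 units) against the log2 median scaled intensity of 240 positive control spots (horizontal axis), 1 point an array. Atp5f1d and Atp5po are low where the controls are low and high where they are high. After normalization Atp5pf stays within 0.4 log2 units and is equally low at both ends of the horizontal axis.

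Some markers of cell types were also low in rat 16. Sums are given below as background-subtracted intensities before normalization, and the median of that intensity over all probes was 11.7 to 14.8 in rotenone rats and 14.6 to 16.6 in solvent rats. Medians of differences are on the normalized log2 scale. The 8 measured of 15 general neuron markers summed to 5787, 4625 and 3299 in rotenone rats 9, 13 and 16, and to 6551 to 7209 in solvent rats. All 8 were lower in mean with rotenone, against 48.3% of all probes tested, with a median of -0.28, or -0.12 without rat 16. Of the 8, 3 had an unadjusted p below 0.05 in limma, against 4.94% of all probes, and 0 were called. The groups did not overlap in 2 of the 8, Gap43 and Syn2, against 9.97% of all probes. Without rat 16, Ina, Gap43 and Syn2 differed by -0.48, -0.39 and -0.30, and Nefl and Nefm by 0.05 and 0.34.

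The 11 measured of 14 dopamine neuron markers summed to 26381 to 39973 in rotenone rats and to 29428 to 36934 in solvent rats. A sum follows its brightest probes, and rat 16 had the highest sum while the median deviation of the 11 from the solvent mean was -0.19 in that rat. Of the 11, 7 were lower in mean with rotenone, against 48.3% of all probes tested, with a median of -0.17, or -0.17 without rat 16. An unadjusted p below 0.05 in limma was found in 2 of the 11, against 4.94% of all probes, and 0 were called. In 2 of the 11, Sncg and Slc6a3, the groups did not overlap, against 9.97% of all probes. The 4 measured of 5 GABA neuron markers summed to 1335 to 1953 in rotenone rats, the lowest in rat 16, and to 1517 to 2163 in solvent rats. Their median was -0.04, with 1 unadjusted p below 0.05 (Gad2, 0.0401 in limma) and 0 called. In Gad2 the groups did not overlap, as in 9.97% of all probes.

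The 7 measured of 9 astrocyte markers summed to 13874 to 15402 in rotenone rats and 13228 to 14786 in solvent rats. Their median was 0.02, or 0.18 without rat 16. Rat 16 was not the lowest in the sum, which follows the brightest probes. The median deviation of the 7 from the solvent mean was -0.44 in rat 16, the lowest of the 6 rats. The 6 measured of 9 oligodendrocyte markers summed to 3548 to 4950 in rotenone rats and 4152 to 6879 in solvent rats, with a median of -0.26, or -0.18 without rat 16. The 3 measured of 9 microglia markers summed to 1471 to 1601 in rotenone rats and 1607 to 1892 in solvent rats. After normalization the groups overlapped in each of these 3, with a median of -0.06. The 2 measured of 7 endothelium and pericyte markers summed to 103 to 176 in rotenone rats and 133 to 156 in solvent rats. The 1 measured of 3 blood markers, Alas2, had 79, 269 and 70 in rotenone rats 9, 13 and 16, and 56 to 117 in solvent rats. No measured marker was at 0, while Pitx3 and Gad2, named after their values were seen, were above background on only 3 of 6 arrays. The part of cell type makeup in the subunit values was not tested.

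Related genes of ATP supply showed no called change either. Of 6 measured carriers and pores, 4 were higher in mean, 2 lower and 0 called, with a median of 0.07. Vdac1, a pore of the outer membrane through which ATP leaves, had 11.49, 11.46 and 11.91 in rotenone rats 9, 13 and 16, against 11.16, 11.26 and 11.31 in solvent rats 1, 7 and 11. The groups did not overlap in Vdac1, as in 9.97% of all probes tested. Its difference was 0.38 ± 0.18 (SE), with an unadjusted p of 0.0585 and an adjusted p of 0.895 in limma. Without rotenone rat 16 the difference was 0.22. Slc25a4, which exchanges ADP for ATP, differed by 0.29, and by 0.15 without rat 16. Slc25a3 differed by -0.45, and by -0.01 without it. No assembly factor of the enzyme had a named probe.

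The lists of the respiratory chain were thinly covered. Of 38 complex I genes, 2 were measured, Ndufa5 and Ndufv3, with differences of 0.19 and 0.11. Of complexes II and III, Sdhd alone was measured, at -0.20. Of complex IV and cytochrome c, 8 of 15 genes were measured, 6 lower and 2 higher with 0 called. Their median was -0.17, or -0.01 without rat 16, and Cycs, the electron carrier cytochrome c, differed by -0.49, and by -0.17 without that rat. Cox7b and Cox7a2, small subunits of complex IV, differed by -0.40 and -0.25, and by 0.01 and -0.07 without rat 16.

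The vacuolar proton pump is a relative of ATP synthase that runs the other way and spends ATP to acidify vesicles. Of its 6 measured genes, 4 were lower in mean, 2 higher and 0 called, with a median of -0.19, or -0.01 without rat 16. Atp6v1f differed by -0.61, with rotenone rat 16 at 9.17 and the other rats between 10.35 and 11.13, and its difference was -0.14 without rat 16. Atp6v0a1, of its membrane part, differed by -0.21, and by -0.04 without rat 16. Atp6v0c, of its c ring, differed by 0.20, and by 0.01 without rat 16. Of 7 measured citric acid cycle genes, 6 were lower, 1 was higher and 0 were called, with a median of -0.20, or -0.11 without rat 16. In Fh and Cs, which make malate and citrate, the groups did not overlap, as in 9.97% of all probes tested. Both were lower with rotenone by a bare margin. To 2 decimals the closest rats of the groups were equal, at 8.11 in Fh and 7.78 in Cs. The differences in mean were -0.37 and -0.22, and -0.15 and -0.26 without rat 16. Mdh2, which oxidises malate, differed by -0.46, and by -0.03 without it. Of the regulators of mitochondrial genes, Tfam and Ppargc1a were measured and differed by 0.04 and -0.04.

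**Figure D5:**
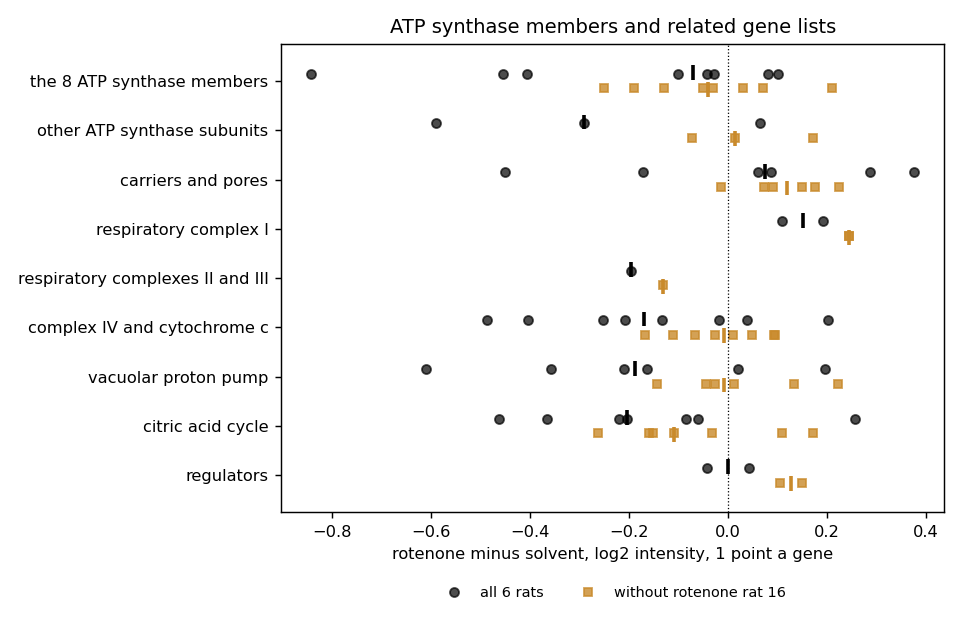
Rotenone minus solvent (horizontal axis, log2 intensity), 1 point a gene, for the 8 members and 8 lists of related genes, over 6 rats (circles) and without rotenone rat 16 (squares), with a bar at each median. Points far to the left, such as Atp5f1d at -0.84, move towards 0 without rat 16.

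The probes whose pattern over the arrays was most like that of the members were found among 2460 probes with a gene symbol. The measure was Pearson's r with the mean profile of the 8 members, each centred on its own mean. That profile was 0.04, 0.09 and -0.44 in rotenone rats 9, 13 and 16, and -0.04, 0.03 and 0.33 in solvent rats 1, 7 and 11. The members did not share 1 pattern. Over 6 arrays r between pairs of members ran from -0.51 (Atp5f1d with Atp5f1e) to 0.88 (Atp5f1d with Atp5mc2). In rat 16 Atp5f1d, Atp5mc2 and Atp5mc1 deviated from the solvent mean by -2.02, -1.11 and -0.84, and the median member by -0.20. The mean profile therefore follows these genes most in that rat. Over 6 arrays the highest were Psmd1, of the proteasome (r = 0.994), Pitpna, a lipid transfer protein (0.991), Hspe1, a mitochondrial chaperonin (0.991), Cand1, a regulator of ubiquitin ligases (0.988), and Dynll1, a dynein light chain (0.985). Over 5 arrays without rotenone rat 16 they were Ptprz1, a receptor phosphatase (0.997), Rbm45, an RNA-binding protein (0.996), Cand1 (0.991), Tomm20, of the mitochondrial import pore (0.985), and Dpp3, a peptidase (0.979). Cand1 alone was in both. For Ptprz1 and Rbm45, r over 6 arrays was 0.390 and 0.503. These values share arrays and normalization and are given as a description.

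Atp5f1d and Atp5mc2 were far below the other rats in rotenone rat 16, and Atp5f1a and Atp5pf were not, so stretches upstream of these genes are shown. These genes were picked by their values, so a contrast between their stretches is no test. Atp5mc1, lowest in rat 16 by 0.49, is not shown. They come from RefSeq promoter windows of the rat build GRCr8, 5′ to 3′ in the direction of the gene. A window was found for 9 of the 10 genes, Atp5f1b and Atp5mc3 included. The capitals mark a match to CGCATGCG, a core of the motif of the nuclear respiratory factor NRF1, or to CCGGAAG, a motif of ETS factors such as GABP, on either strand. Of 11 motifs searched, these 2 were chosen for display after the matches of all 11 were seen. The stretches are chr7:135678239-135678318 (minus strand) for Atp5mc2, chr7:10214371-10214450 (minus) for Atp5f1d, chr11:37375162-37375281 (minus) for Atp5pf and chr18:73567437-73567516 (plus) for Atp5f1a.
Atp5mc2: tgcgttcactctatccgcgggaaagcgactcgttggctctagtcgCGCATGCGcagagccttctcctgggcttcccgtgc
Atp5f1d: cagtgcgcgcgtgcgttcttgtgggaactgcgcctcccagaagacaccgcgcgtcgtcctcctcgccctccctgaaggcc
Atp5pf: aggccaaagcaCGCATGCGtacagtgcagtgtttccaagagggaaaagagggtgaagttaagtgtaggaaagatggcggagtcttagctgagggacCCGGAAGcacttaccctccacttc
Atp5f1a: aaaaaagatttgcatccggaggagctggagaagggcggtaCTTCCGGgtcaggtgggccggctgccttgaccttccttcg

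CGCATGCG, which reads the same on both strands, was in 2 of the 9 windows of 300 bases, those of Atp5mc2 and Atp5pf, and in 1.66% of 33469 such windows. Its first letter lay 55 bases before the annotated start in Atp5mc2 and 169 before it in Atp5pf. CCGGAAG was in the windows of Atp5f1a and Atp5pf, and in 8.75% of all windows. The capitals of Atp5pf do not overlap each other.

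The other motifs gave other sets of genes. The NRF1 palindrome of full length was in 1 of 9 windows (0.852% of all), that of Atp5mc2. It was in 3 with 1 free base at its centre (4.25%) and in 3 with its centre wholly free (5.58%). Of the shorter NRF1 forms, GCATGCG was in 2 (3.33%) and TGCGCA in 2 (7.24%). Of the further ETS forms, CGGAAG was in 6 of 9 windows (16.6% of all) and ACTTCCG in 1 (6.32%). CCAAT, the CCAAT box, was in 4 (37.5%) and TGACCTT, a site of ERR-like receptors, in 3 (4.61%). The forms within a family overlap, so these counts are not independent. Atp5f1d held none of the 11. Atp5pf shared CGCATGCG with Atp5mc2 but did not hold the palindrome of full length. The differences of Atp5pf and Atp5mc2 between the groups were 0.08 and -0.45, and 0.21 and -0.13 without rotenone rat 16. A match is a description of letters in a window, and neither a match nor its lack was tested against the values.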

How the data were processed

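Total RNA (2 µg) of each rat was amplified, labelled with biotin and hybridised, per the labels' protocols. The deposited scanner files give linear intensity values per spot: spot mean, local background median, their difference, and that difference divided by 1 constant per array. No label or header names the scanner software. Values of the deposited series table are this scaled intensity on a linear scale, uncentred, with column medians of 0.996, 0.998 and 0.999 in rotenone rats 9, 13 and 16, and 0.996, 1.00 and 0.994 in solvent rats 1, 7 and 11. In its solvent rat 7 column 0.898% of probes equalled the scanner file within 1e-06, against 100% in the other columns, so it was not used with that column.

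Normexp background correction (offset 50), removal of control spots, log2 and quantile normalization preceded limma 3.58.1 in R 4.3.3. Probes above background on at least 3 of 6 arrays were tested, 16708 of 33849, every spot kept. The scanner marked 29.4% to 36.3% of probes per array as irregular, and left none of the members testable where such spots were dropped. Probes were named through RefSeq accessions (assembly GRCr8). The number of arrays limits the precision. All members, and of each related list the 3 genes with the smallest unadjusted p, are named, with the 5 genes most like the members and Th, 1 of the 2 brightest dopamine neuron markers. Slc6a3 and other single markers were named after their values were seen. Motifs and the relation to control spots were chosen after the values were seen. The members and lists were chosen with earlier results of these data known. In the test on simulated data, fitted differences were too small, since the offset draws differences towards 0. The median fitted log2 was 0.61 over 100 changes of 2-fold and 1.24 over 100 changes of 4-fold. For bright probes it was 0.85 over 10 changes of 2-fold and 1.89 over 15 changes of 4-fold.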

Additional observations from a re-analysis of the deposited data

How the results depend on the processing

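With 19 other settings, 0 members were called in each of the 18 that could test them, and the median difference of the members ranged from -0.16 to 0.07, the ends being fits that left out solvent rat 1 or 11. With scaled intensities, log2 after a pseudocount of 1, it was 0.06. Over all probes 0 were called in each setting except without solvent rat 1, where 3 were, Cdon among them and no member; leaving out 1 rat gave 0 to 3. Atp5f1d, Atp5mc1 and Atp5mc2 stayed below 0 and Atp5pf above 0 in all 18. Atp5f1d was -0.51 with array weights, and between -1.21 and -0.25 with a rat left out. Small differences changed sign, so the count of members lower in mean was not stable. It was 3 of 8 with scaled intensities, and 4 of 8 in the deposited value table without solvent rat 7. Atp5f1a was 0.0081 with scaled intensities and ranged from -0.21 to 0.0603 with a rat left out. Atp5f1c was 0.12 with scaled intensities, 0.11 in the deposited value table without solvent rat 7 (added after seeing the data), and -0.18 to 0.11 with a rat left out. Atp5f1e was 0.27 with scaled intensities and ranged from -0.0673 (without solvent rat 7) to 0.20 with a rat left out. Atp5pd was 0.14 with scaled intensities, 0.0225 with array weights, 0.10 in that table, 0.03 without rotenone rat 16, and -0.10 to 0.0759 with a rat left out. The cause was not tested. The deposited table with its solvent rat 7 column was not run, since that column stands beside other probes. No paired analysis was possible because the groups share no rat numbers.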
